A study of Mus musculus with 18 samples.

Results

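Cell cycle and DNA replication genes were followed in mouse thyroid after part of the gland had been removed. The set held 41 genes, listed by their part in the cell cycle and chosen with earlier results of these data known. It comprised 10 genes of G1, 12 of S phase, 14 of mitosis and 5 inhibitors of cyclin-dependent kinases. The genes were represented by 67 of the 41174 gene probes on the array. Of these, 65 carried the gene's current name and 2 an older name, Cdc2a, for Cdk1. Each gene took its value from its probe of highest mean intensity, and 22 genes had 1 probe only. After probes near background were set aside, 32 of the 41 genes were among the 14664 tested.

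The tissue was thyroid of male C57BL/6 mice, cut from frozen sections by laser capture as a central or a peripheral area of the lobe, and all 4 groups share strain, sex and capture method. Normal mice had no operation, and dissected mice had undergone partial thyroidectomy. The groups were normal central (5 arrays), normal peripheral (3 arrays), dissected central (5 arrays) and dissected peripheral (5 arrays). The labels give neither the age of the mice nor the time since the operation, nor a link from areas to mice. Several areas can thus stem from 1 mouse. The p-values below may be too small where areas of 1 group share a mouse. They may be too large where areas of compared groups do. On each array, amplified RNA of 1 captured area, labelled with Cy5, competed with a Cy3-labelled reference RNA shared by all arrays. The value of a gene is its log2 ratio of Cy5 over Cy3, and a difference between groups is a difference of these log2 ratios.

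A cell that enters the cycle passes from G1 into S phase when D-type cyclins with Cdk4 or Cdk6, and then cyclin E with Cdk2, phosphorylate the retinoblastoma protein and release E2F factors, which switch on the genes of DNA replication. The Mcm proteins form the helicase that is loaded at replication origins, Pcna clamps the polymerase to DNA, and Rrm1, Rrm2, Tyms and Tk1 supply nucleotides. Cyclins A and B with Cdk1, the Aurora and Polo kinases and the anaphase-promoting complex then carry the cell through mitosis, while the Cdkn proteins hold the kinases back. Adult thyroid follicles divide rarely at rest, and loss of gland tissue with a rise of thyrotropin is a known stimulus of their growth.

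The promoters of the genes that the results turn on are shown for the letters that mark phase-specific genes, as the 250 bases before the RefSeq start on GRCm38.p6, all on the minus strand. Capitals mark the CHR element (TTTGAA or TTCGAA), bound by the complex that times mitotic genes, and the CCAAT box (CCAAT, read as ATTGG on the other strand). The searched E2F letters (TTTCGCGC, TTTGGCGC or TTTCCCGC) do not occur in these 5 windows, and all motifs were searched on both strands. The windows lie at chr7:38107491-38107740 for Ccne1, chr1:20820313-20820562 for Mcm3, chr7:135716380-135716629 for Mki67, chr9:70421555-70421804 for Ccnb2 and chr4:118437344-118437593 for Cdc20.
Ccne1: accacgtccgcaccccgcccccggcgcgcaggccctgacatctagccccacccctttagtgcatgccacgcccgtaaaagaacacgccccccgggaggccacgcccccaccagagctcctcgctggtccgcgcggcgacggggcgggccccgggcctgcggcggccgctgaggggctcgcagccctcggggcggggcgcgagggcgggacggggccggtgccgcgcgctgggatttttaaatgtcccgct
Mcm3: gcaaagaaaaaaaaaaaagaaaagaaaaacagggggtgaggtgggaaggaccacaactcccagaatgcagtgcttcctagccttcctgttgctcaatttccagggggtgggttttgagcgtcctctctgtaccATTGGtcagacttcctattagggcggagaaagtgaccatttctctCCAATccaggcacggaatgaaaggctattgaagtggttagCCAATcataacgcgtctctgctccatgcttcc
Mki67: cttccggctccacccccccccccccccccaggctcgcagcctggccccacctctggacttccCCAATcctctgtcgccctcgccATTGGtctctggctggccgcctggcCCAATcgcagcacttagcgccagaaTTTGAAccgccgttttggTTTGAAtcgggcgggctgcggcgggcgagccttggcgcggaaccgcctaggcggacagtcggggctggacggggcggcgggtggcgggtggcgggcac
Ccnb2: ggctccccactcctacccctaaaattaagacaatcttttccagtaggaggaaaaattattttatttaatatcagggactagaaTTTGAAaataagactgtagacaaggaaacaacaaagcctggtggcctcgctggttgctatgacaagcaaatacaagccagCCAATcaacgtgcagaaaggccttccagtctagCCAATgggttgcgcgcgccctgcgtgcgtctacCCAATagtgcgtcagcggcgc
Cdc20: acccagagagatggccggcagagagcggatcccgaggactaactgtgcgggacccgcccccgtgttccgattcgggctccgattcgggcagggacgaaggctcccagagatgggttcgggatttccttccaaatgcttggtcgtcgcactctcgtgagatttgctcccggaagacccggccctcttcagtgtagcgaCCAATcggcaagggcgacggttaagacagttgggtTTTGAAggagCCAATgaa
Ccne1 held none of the searched letters in this window. Mcm3 held 3 CCAAT boxes, at 117, 72 and 32 bases before the start. Mki67 held 2 CHR elements, at 116 and 98 bases before the start, downstream of 3 CCAAT boxes. Ccnb2 held 1 CHR element and 3 CCAAT boxes, and Cdc20 held 1 CHR element 18 bases before the start between 2 CCAAT boxes.

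Promoters were found for 33 of the 41 genes. Some of these genes have more than 1 promoter in the table, and each promoter was counted on its own. A CHR element lay in 7 of 12 mitosis promoters (58.3%), in 2 of 12 S phase promoters (16.7%) and in 0 of 7 G1 and 0 of 7 inhibitor promoters, against 17.1% of all 32851 promoters of this length. A CCAAT box lay in 11 of 12 mitosis promoters (91.7%) and 9 of 12 S phase promoters (75%), against 33.8% of all promoters. The E2F letters lay in 4 of 12 S phase promoters (33.3%), in 1 promoter of each other class, and in 1.53% of all promoters. These matches describe the DNA letters and carry no measurement of a bound factor.

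Before the values are read, the reference channel needs a remark, because it held a thyroid signal that its label does not give. The labels give a commercial mixed mouse RNA of embryo and adult tissues, thyroid not among them. In Cy3, however, the thyroglobulin gene Tg was well above background on all 18 arrays, at an intensity of 21100 to 161000. Of 20 genes typical of the listed tissues, 8 were above background on 0 arrays, among them the kidney gene Umod and the sperm gene Tnp1, and 8 on 1 to 5 arrays, among them the liver gene Alb at up to 108. The brain gene Mbp (754 to 4750) and the lung gene Scgb1a1 (152 to 611) were above background on all 18 arrays, and the heart gene Nppa and the thymus gene Dntt on 14 each. Within each array the normalized log2 levels of both channels, after a further log2 step, correlated at 0.959 to 0.987 across probes, which are not independent replicates. The channels had been normalized against each other before, which draws them together, so this correlation cannot show what the reference RNA was. These reference genes were chosen after the data had been seen. What the reference RNA was could not be settled here, so ratios are read only as differences between groups.

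In the tissue channel Tg was above background on all 18 arrays, and the 10 tested thyrocyte markers had a mean log2 ratio of -0.13 to 0.51 per array. The 11 tested C cell markers had a mean of 0.65 to 1.57 on normal central arrays and -1.76 to -1.10 on normal peripheral arrays. After dissection these means were -1.29 to 1.16 in the centre, where dissected central 2 lay below all other central arrays, and -2.44 to -2.04 in the periphery. The array normal central 3 stood apart: Pth, the parathyroid hormone gene and the 1 tested marker of 3 parathyroid markers, had a log2 ratio of 3.99 there and of -5.17 to -1.80 on the other 17 arrays. The share of gene probes above background in Cy5 was 24.7% to 44.0%, with under 30% on normal peripheral 1, dissected central 1, dissected central 2 and dissected peripheral 1. Each slide carried the groups in the same array positions, so position and group cannot be told apart.

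Genes of G1, replication and kinase inhibition were mostly measurable in these areas, while several core mitotic genes lay at background. Of the 41 genes, 4 of G1, 7 of S phase, 1 of mitosis (Birc5, survivin) and 3 inhibitors were above background on all 18 arrays, and over all genes of the array 26.09% were. The number above background per array ran from 18 on normal peripheral 1 to 33 on normal central 3. Cdk1, the mitotic kinase, read a Cy5 intensity of 21.2 to 96.2 with a median of 51.2, and Top2a, the topoisomerase that untangles replicated DNA, read 20.4 to 108 with a median of 57.3. By the flag of the scanner program for signals well above background neither was above background on any array in either channel. Their differences between groups therefore have no reading, and they were not tested.

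The other 7 genes that were not tested were Ccne2 (cyclin E2), Cdk2 (the partner of cyclin E), Rrm2, Bub1b (a spindle checkpoint kinase), Aurkb (Aurora kinase B), Kif11 (a spindle motor) and Cdkn2a (the gene of p16 and p19Arf). Cdk2 was above background on 1 array, Aurkb on 2, and the remaining ones on none. All 9 untested genes were above background on 0 arrays in the reference channel as well. Thus 5 of the 14 mitosis genes, but 1 of the 12 S phase genes, gave no test. Filtering used the tissue signal alone, so a gene low in every area left the test whatever its differences.

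**Figure D1:**
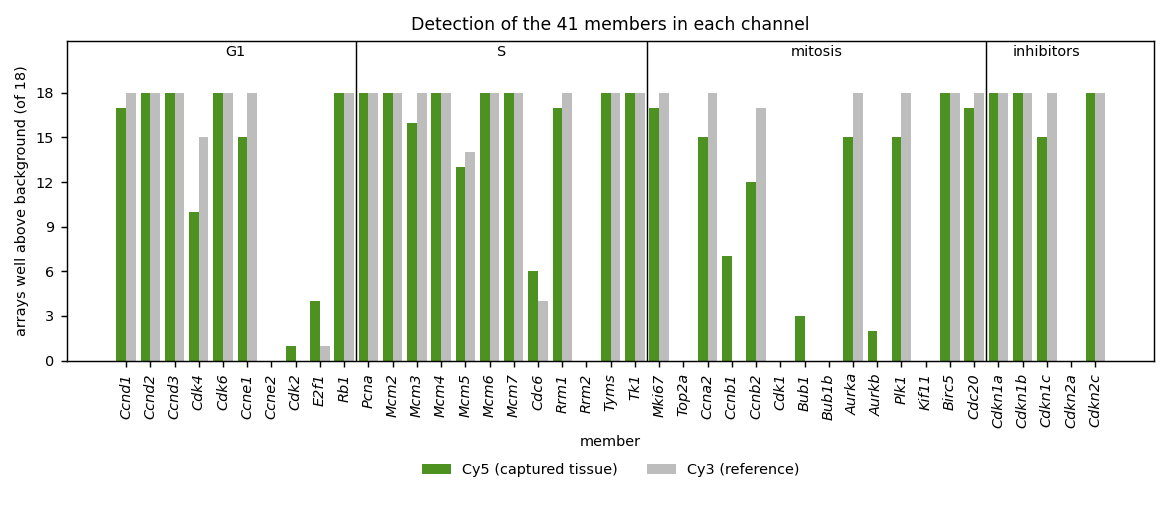
Number of the 18 arrays on which each of the 41 genes passed the background flag, shown for tissue (Cy5) and reference (Cy3), by class. Cdk1 and Top2a sit at 0 in both channels, and Birc5 is the 1 mitosis gene at 18 in Cy5.

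No member was called in any comparison. limma, with Benjamini-Hochberg adjustment over all 14664 genes, called 0 genes (0%) after dissection in the centre, 0 (0%) after dissection in the periphery, 41 (0.28%) between the areas of normal glands, 86 (0.586%) between the areas of dissected glands, 0 (0%) for the difference of the dissection change between areas and 155 (1.06%) in the F test among the 4 groups. None of the 32 tested members was among them. At an unadjusted p under 0.05, limma picked out 2 members after dissection in the centre (6.25% of 32, background 5.24%) and 3 in the periphery (9.38%, background 8.35%). It picked out 2 between normal areas (background 8.59%), 1 between dissected areas (3.12%, background 7.43%), 2 for the difference of the dissection change (background 5.82%) and 3 in the F test (background 8.93%). These shares lie near the background, and what follows describes the members with that in view.

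Groups that do not overlap were also counted. After dissection in the periphery, 2 members had no overlap between the groups, Ccne1 and E2f1, where 4.21% of all genes had none. Between dissected areas 1 member had no overlap, Mcm3, against 1.67% of all genes. After dissection in the centre and between normal areas there were 0 such members, against 1% and 4.86% of all genes.

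By class, the median differences were small. After dissection in the centre 16 of the 32 tested members lay above 0, with a median log2 difference of 0.01, and in the periphery 21 of 32 did, with a median of 0.15. Over all genes 48.73% and 51.02% lay above 0, with medians of -0.01 and 0.01. The peripheral medians were 0.19 for 8 G1 genes, 0.11 for 11 S phase genes, 0.17 for 9 mitosis genes and 0.21 for 4 inhibitors, and the central ones 0.05, -0.05, -0.0034 and 0.08. The peripheral comparison rests on 3 normal arrays. Of these, normal peripheral 1 had the smallest share of probes above background of all 18 arrays (24.7%). Normal peripheral 3 had the lowest median Cy5 intensity of all 18 (30 after background subtraction, beside 45.7 on normal peripheral 1).

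**Figure D2:**
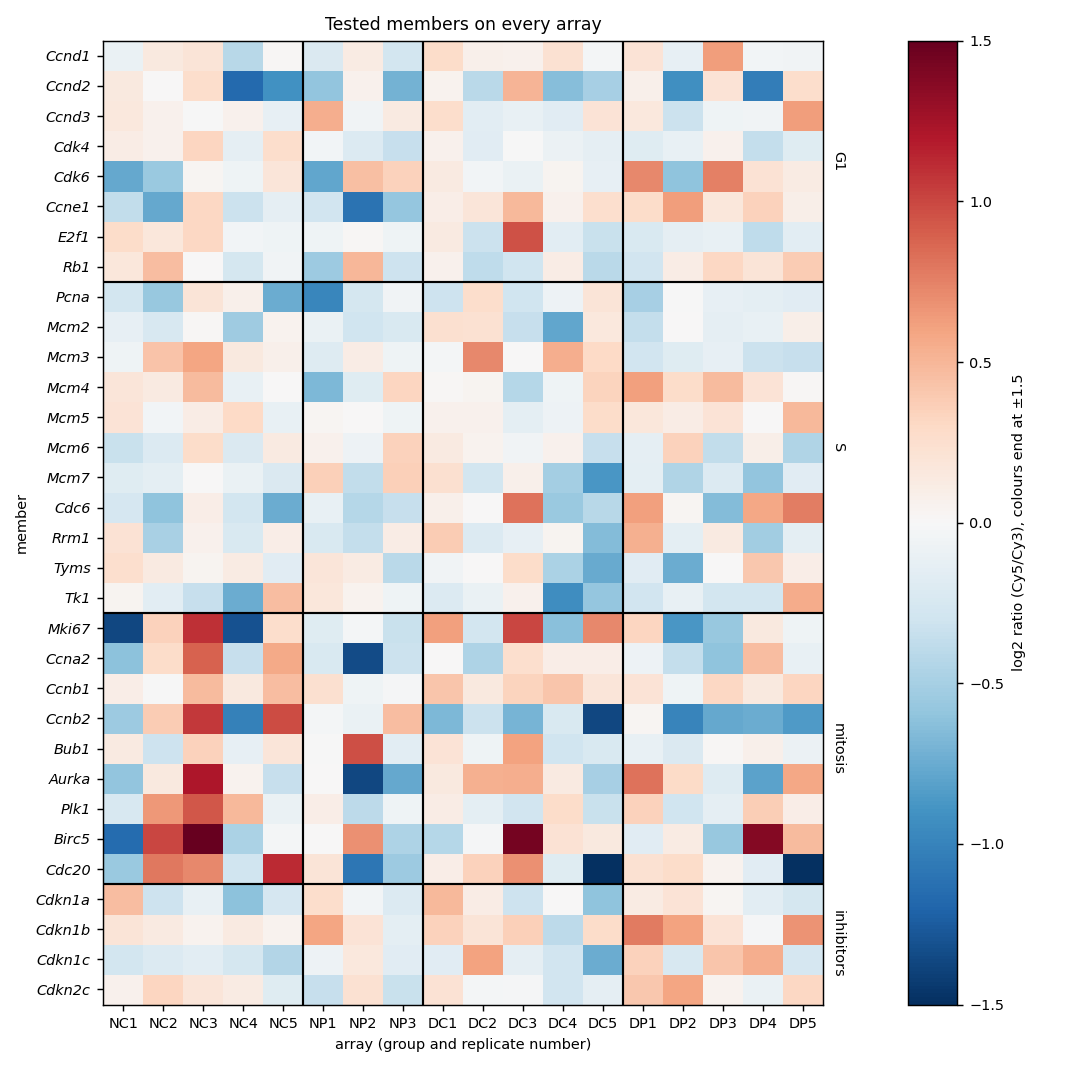
Log2 ratio of tissue over reference for the 32 tested members on each of the 18 arrays, ordered by class and group. The mitosis genes show the strongest contrast among arrays of the same group, for example between normal central 1 and normal central 3.

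Ccne1, cyclin E1, which drives entry into S phase, was the member with the smallest p in the periphery. It read -0.29, -1.11 and -0.58 on the 3 normal peripheral arrays and 0.27, 0.63, 0.17, 0.35 and 0.09 on the 5 dissected peripheral arrays. On normal central arrays it read -0.37, -0.77, 0.31, -0.32 and -0.13, and on dissected central arrays 0.10, 0.18, 0.49, 0.06 and 0.25. Every dissected peripheral array was above every normal peripheral array, whereas in the centre normal central 3 overlapped the dissected values.

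In the periphery the mean Ccne1 log2 ratio was -0.66 ± 0.42 (SD, n = 3) in normal and 0.30 ± 0.21 (SD, n = 5) in dissected areas. The difference of 0.96 (SE 0.21, 95% interval 0.51 to 1.41) is 1.95-fold, ranked 15 of 14664 genes by p, and did not pass adjustment (limma, p 0.0003126, adjusted p 0.3056). Because the probe was above background on 0 of 3 normal peripheral arrays, that group's level is only a limit. For it, each array took the higher of the probe's Cy5 level and the lowest Cy5 level above background. With that floor the dissected mean was 1.90-fold higher, on Cy5 levels normalized against Cy3 and between arrays. This value compares group means only and carries no sampling error, so it is no lower limit on the true difference. The difference was positive on all 3 slides that carried both groups, and within the scan days it was 0.84 and 1.03.

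In the centre the mean was -0.25 ± 0.39 (SD, n = 5) in normal and 0.21 ± 0.17 (SD, n = 5) in dissected areas, a difference of 0.47 (SE 0.19, 95% interval 0.08 to 0.86) or 1.39-fold (limma, p 0.02164, adjusted p 0.8693). It was positive on all 5 slides. Leaving out normal central 2 gave 0.34 (p 0.07626) and leaving out dissected central 3 gave 0.40 (p 0.05782). The change in the centre minus that in the periphery was -0.49 (SE 0.28, p 0.1008, adjusted p 0.7896), so a difference between the areas was not detected.

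How far Ccne1 stands out depended on the form of the values. In the scanner's own processed log ratios, the normal peripheral arrays read -3.18, -2.44 and -1.59 and the dissected ones 0.47, 0.98, 0.39, 0.60 and 0.15. The difference was then 2.92, and Ccne1 was the 1 gene of 14664 that limma called (adjusted p 0.0215). In the series' value table it was 2.95 (adjusted p 0.02614). In both forms the 3 normal peripheral spots, none above background, lay far below 0. The log ratios of the main fit carry an offset of 50. No such offset was added here to the scanner's log ratios, and the processing of the value table is not stated. The part of the offset in the size of the difference was not tested. In the F test among the 4 groups the adjusted p was 0.0716, and without normal central 3 it was 0.0299 and without normal peripheral 1 it was 0.04785.

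The background-subtracted Cy5 intensity of Ccne1 was 36.9 to 383 over the arrays, with 40, 67.4 and 36.9 in the normal periphery and 111, 338, 206, 171 and 383 in the dissected periphery. The probe lies at chr7:34990690-34990713 on mm7, a shorter span than a probe covers, and the exon or untranslated region under it was not determined. A second Ccne1 probe, given the same position, was above background on 0 arrays in Cy5. It read -0.02, -0.08 and -0.19 in the normal and -0.08, -0.01, -0.24, -0.31 and -0.08 in the dissected periphery, values at background. The Ccne1 result thus rests on 1 probe. Beside it, the C cell marker mean was -1.76 to -1.10 on normal and -2.44 to -2.04 on dissected peripheral arrays, and the thyrocyte marker mean was -0.03 to 0.29 and -0.04 to 0.51. Their part in the Ccne1 difference was not tested. In captured tissue, more cells that express a gene and more RNA per cell cannot be told apart.

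**Figure D3:**
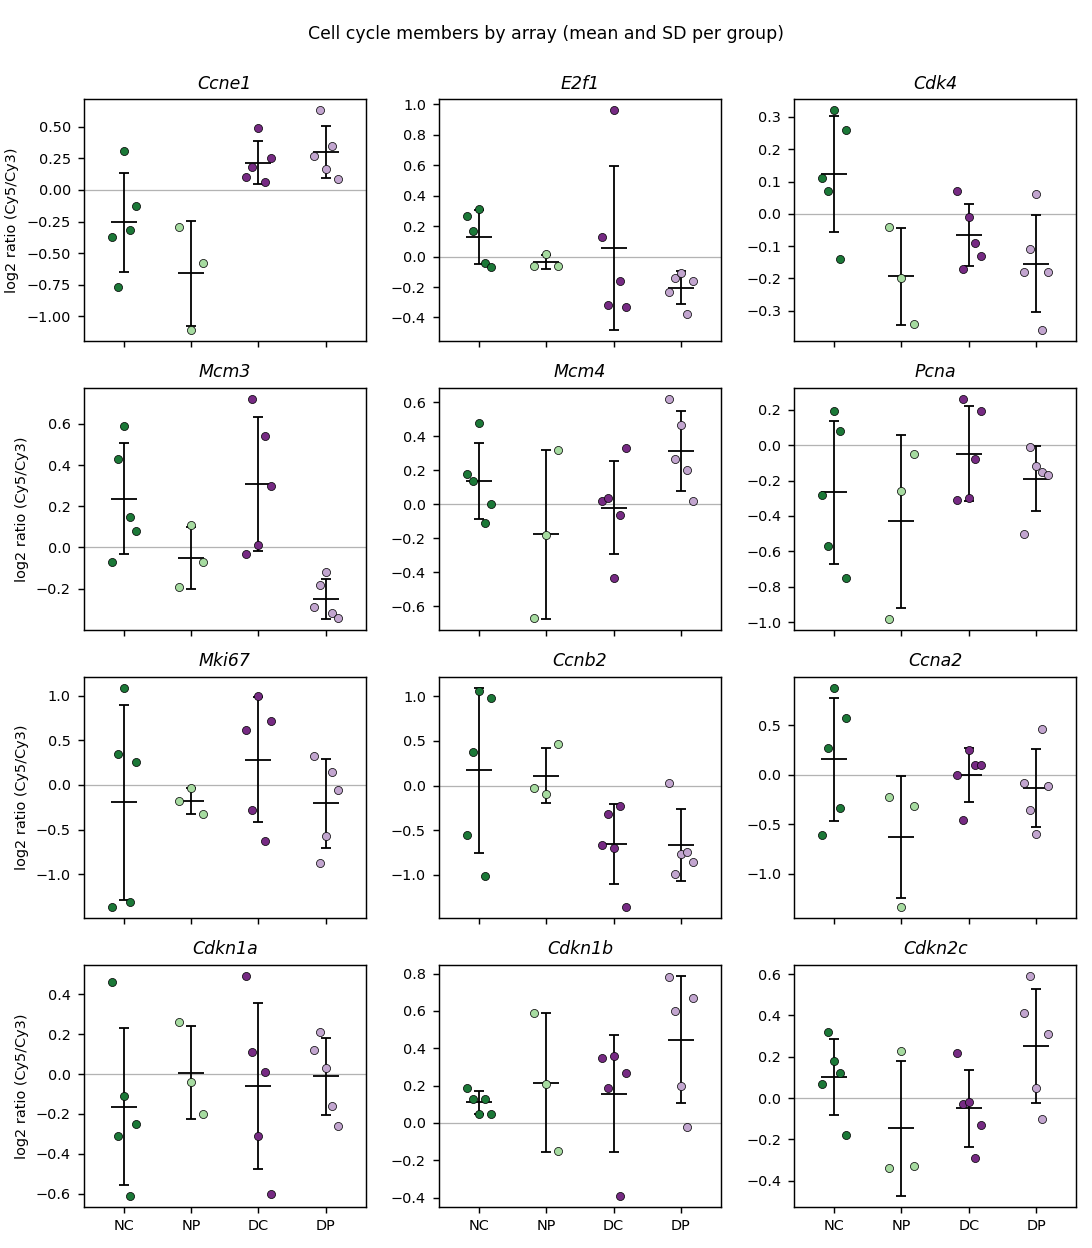
Log2 ratio of tissue over reference on each array, in the 4 groups, for some of the members described in full. Points are arrays and bars give the group mean and SD. Ccne1 in the dissected periphery (0.09 to 0.63) lies above the normal periphery (-1.11 to -0.29), and Mcm3 in the dissected centre (-0.03 to 0.72) lies above the dissected periphery (-0.34 to -0.12).

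Among the other G1 genes, Cdk4, the kinase partner of D-type cyclins, had a lower mean in the normal periphery than in the normal centre. It read 0.11, 0.07, 0.32, -0.14 and 0.26 on normal central and -0.04, -0.20 and -0.34 on normal peripheral arrays. Dissected central arrays read 0.07, -0.17, -0.01, -0.09 and -0.13 and dissected peripheral ones -0.18, -0.11, 0.06, -0.36 and -0.18. The normal groups overlapped through normal central 4. Their difference of 0.31 (SE 0.13) or 1.24-fold did not pass adjustment (limma, p 0.0279, adjusted p 0.5071). The probe was above background on 0 of 3 normal peripheral arrays, so that group's level is itself only a limit. Without normal peripheral 3 the difference was 0.24 (p 0.1247).

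E2f1, a transcription factor that activates replication genes, read -0.06, 0.02 and -0.06 on normal peripheral and -0.23, -0.14, -0.11, -0.38 and -0.16 on dissected peripheral arrays. It read 0.27, 0.17, 0.31, -0.04 and -0.07 in the normal centre and 0.13, -0.32, 0.96, -0.16 and -0.33 in the dissected centre. The peripheral groups did not overlap, yet their difference of -0.17 (SE 0.22, 95% interval -0.63 to 0.30, limma adjusted p 0.879) lay within the error. The probe was above background on 1 of 3 normal peripheral and 0 of 5 dissected peripheral arrays, so these are values near background.

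Ccnd1, cyclin D1, which couples growth signals to the cycle, read -0.10, 0.15, 0.19, -0.42 and 0.02 in the normal centre and 0.28, 0.08, 0.07, 0.23 and -0.03 in the dissected centre. In the periphery it read -0.22, 0.12 and -0.28 in normal and 0.20, -0.12, 0.63, -0.04 and -0.05 in dissected areas. All groups overlapped. The difference after dissection was 0.16 in the centre (95% interval -0.17 to 0.48, adjusted p 0.9979) and 0.25 in the periphery (95% interval -0.13 to 0.62, limma adjusted p 0.7356), neither beyond the spread.

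Rb1, the retinoblastoma protein that restrains E2F, read 0.17, 0.46, 0.01, -0.26 and -0.05 in the normal centre and 0.07, -0.38, -0.30, 0.11 and -0.41 in the dissected centre. It read -0.55, 0.50 and -0.31 in the normal periphery and -0.29, 0.11, 0.31, 0.19 and 0.38 in the dissected periphery. Dissected central and dissected peripheral areas overlapped, with a difference of -0.32 (SE 0.20, limma p 0.1214, adjusted p 0.8071). Of the remaining G1 genes, Ccnd2, Ccnd3 (D-type cyclins) and Cdk6, none reached an unadjusted p under 0.05 in any comparison.

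Among S phase genes, Mcm3, a subunit of the replicative helicase, had a higher mean in the centre than in the periphery of dissected glands. It read -0.03, 0.72, 0.01, 0.54 and 0.30 on dissected central and -0.29, -0.18, -0.12, -0.32 and -0.34 on dissected peripheral arrays. Normal central arrays read -0.07, 0.43, 0.59, 0.15 and 0.08 and normal peripheral ones -0.19, 0.11 and -0.07. The dissected groups did not overlap, and the 5 dissected peripheral values lay close together, while the normal areas overlapped.

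The dissected means were 0.31 ± 0.33 (SD, n = 5) in the centre and -0.25 ± 0.10 (SD, n = 5) in the periphery. Their difference of 0.56 (SE 0.16, 95% interval 0.23 to 0.89), 1.48-fold, had the same sign on all 5 slides and was 0.49 and 0.61 within the scan days. It ranked 199 of 14664 genes and did not pass adjustment (limma, p 0.002146, adjusted p 0.1581). In normal glands the difference between the areas was 0.28 (SE 0.18, p 0.1351), and the difference between both, 0.28 (SE 0.24), was not beyond error (limma p 0.2577, adjusted p 0.8314). The C cell marker mean differed between the same groups, from -1.29 to 1.16 in the centre to -2.44 to -2.04 in the periphery, and its part in the Mcm3 difference was not tested. With Cy5 alone the difference was 0.65 (limma p 0.0751). The Mcm3 probe lies at chr1:20998636-20998695 on mm7. A second Mcm3 probe was set aside as near background. It read -0.01, -0.13, -0.09, 0 and -0.01 in the dissected centre. In the dissected periphery it read -0.03, -0.07, -0.35, -0.03 and 0.2. The Mcm3 difference thus rests on 1 probe.

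Mcm4, another helicase subunit, read -0.67, -0.18 and 0.32 on normal peripheral and 0.62, 0.27, 0.47, 0.20 and 0.02 on dissected peripheral arrays. Normal central arrays read 0.18, 0.14, 0.48, -0.11 and 0.00 and dissected central ones 0.02, 0.04, -0.43, -0.06 and 0.33. The peripheral groups overlapped through normal peripheral 3. The lowest value was that of normal peripheral 1, the array with the smallest share of probes above background. The difference was 0.49 (SE 0.21, limma p 0.03243, adjusted p 0.5762), and without normal peripheral 1 it was 0.25 (p 0.2687). The dissection change in the centre minus that in the periphery was -0.65 (SE 0.28, limma p 0.03204, adjusted p 0.7896), and -0.41 (p 0.1499) without that array.

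The differences of the helicase subunits did not share a direction. Mcm3 had a difference of 0.56 between dissected areas, while Mcm4 had -0.34 (SE 0.18, limma adjusted p 0.7548), and Mcm2, Mcm5, Mcm6 and Mcm7 had intervals that include 0 in every comparison. In the periphery after dissection the smallest p of these 4 was that of Mcm7, with a difference of -0.43 (limma p 0.06898). Cdc6, which loads the helicase, was above background on 6 arrays in Cy5.

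Pcna, the polymerase clamp, was above background on all 18 arrays, with a Cy5 intensity of 119 to 2200 and a median of 1170. The array prints its 60-base probe in 10 spots, shown here because the repeated spots give the noise of a single spot, at chr2:131990537-131990674 on mm7, a span of 138 bases for 60 bases of probe.
Pcna probe: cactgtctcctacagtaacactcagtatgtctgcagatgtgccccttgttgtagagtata
The SD among the 10 spots of an array had a median of 0.04 on the log2 scale, against an SD of 0.33 among arrays of a group. Spots of an array share its amplification, labelling and hybridisation, so the spot SD leaves out the error of those steps.

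Pcna read -0.28, -0.57, 0.19, 0.08 and -0.75 in the normal centre and -0.31, 0.26, -0.30, -0.08 and 0.19 in the dissected centre. In the periphery it read -0.98, -0.26 and -0.05 in normal and -0.50, -0.01, -0.12, -0.15 and -0.17 in dissected areas. All groups overlapped. The difference after dissection was 0.22 in the centre (95% interval -0.21 to 0.65, adjusted p 0.9979) and 0.24 in the periphery (95% interval -0.26 to 0.73, limma adjusted p 0.8206). These intervals leave room for a rise of up to 0.65 and 0.73 that the arrays could not resolve.

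Tyms, thymidylate synthase, read 0.25, 0.14, 0.04, 0.12 and -0.17 in the normal centre and -0.05, 0.01, 0.27, -0.48 and -0.76 in the dissected centre. It read 0.18, 0.12 and -0.40 in the normal periphery and -0.17, -0.74, 0.01, 0.40 and 0.10 in the dissected periphery. The central difference of -0.28 (SE 0.21, limma p 0.2065) was the smallest p of the S phase genes in that comparison and lay within the error. Rrm1, a subunit of ribonucleotide reductase, and Tk1, thymidine kinase, did not reach an unadjusted p under 0.05 either.

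Mki67, the gene of the Ki-67 protein by which dividing cells are counted in tissue, varied widely within each larger group. It read -1.37, 0.35, 1.09, -1.31 and 0.26 in the normal centre and 0.61, -0.28, 1.00, -0.63 and 0.72 in the dissected centre. In the periphery it read -0.18, -0.03 and -0.33 in normal and 0.32, -0.87, -0.57, 0.15 and -0.06 in dissected areas. Both extremes of all 18 arrays, normal central 1 and normal central 3, fell in one group. The difference after dissection was 0.48 in the centre (SE 0.43, 95% interval -0.42 to 1.38, adjusted p 0.9979) and -0.02 in the periphery (SE 0.50, 95% interval -1.07 to 1.02, limma adjusted p 0.9968). These intervals leave room for a change in either direction that the arrays could not resolve.

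Ccnb2, cyclin B2, a partner of Cdk1, had a lower mean in the dissected centre than in the normal centre. It read -0.55, 0.38, 1.06, -1.01 and 0.98 on normal central and -0.67, -0.32, -0.70, -0.23 and -1.36 on dissected central arrays. In the periphery it read -0.03, -0.10 and 0.46 in normal and 0.03, -0.99, -0.77, -0.74 and -0.85 in dissected areas. In the centre the groups overlapped through normal central 1 and normal central 4, and in the periphery through dissected peripheral 1.

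The central Ccnb2 difference was -0.83 (SE 0.35, 95% interval -1.56 to -0.10), and it did not pass adjustment (limma, p 0.02895, adjusted p 0.8781). The peripheral one was -0.78 (SE 0.40, p 0.06991). Dissected was lower on 4 of 5 slides in the centre. Without normal central 3 the central difference was -0.61 (p 0.09617), without normal central 5 it was -0.63 (p 0.09199), and without normal central 2 it was -0.77 (p 0.05684). Leaving out dissected central 5 gave -0.65 (p 0.08507). The probe was above background on 12 of 18 arrays and lies at chr9:70439814-70439873 on mm7.

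Ccna2, cyclin A2, which acts in S phase and at the entry to mitosis, read -0.61, 0.27, 0.88, -0.34 and 0.57 on normal central and -0.23, -1.34 and -0.32 on normal peripheral arrays. Dissected central arrays read 0.00, -0.46, 0.25, 0.10 and 0.10 and dissected peripheral ones -0.08, -0.36, -0.60, 0.46 and -0.11. The normal groups overlapped, and normal peripheral 2 was the lowest of all 18 arrays. The difference between normal areas was 0.78 (SE 0.33, limma p 0.02752, adjusted p 0.5057), with the centre higher on 1 of 3 slides. Without normal peripheral 2 it was 0.43 (p 0.2253), and without normal central 3 it was 0.60 (p 0.07481).

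Aurka, Aurora kinase A, which builds spindle poles, read 0.01, -1.36 and -0.77 in the normal periphery and 0.82, 0.29, -0.19, -0.80 and 0.58 in the dissected periphery. It read -0.59, 0.15, 1.21, 0.05 and -0.34 in the normal centre and 0.15, 0.53, 0.55, 0.13 and -0.50 in the dissected centre. The peripheral groups overlapped, with a difference of 0.85 (SE 0.41, 95% interval -0.02 to 1.71, limma p 0.0542, adjusted p 0.6067). The normal peripheral group was above background on 1 of 3 arrays.

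Plk1, the Polo-like kinase of mitotic entry, read -0.24, 0.65, 0.93, 0.49 and -0.10 in the normal centre and 0.11, -0.15, -0.29, 0.27 and -0.33 in the dissected centre. It read 0.10, -0.39 and -0.07 in the normal periphery and 0.34, -0.30, -0.13, 0.37 and 0.10 in the dissected periphery. The central groups overlapped, and their difference of -0.42 (SE 0.21, limma p 0.06323, adjusted p 0.9563) did not pass the test. Ccnb1 (cyclin B1), Bub1 (a checkpoint kinase), Birc5 and Cdc20 (an activator of the anaphase-promoting complex) reached no unadjusted p under 0.05 in any comparison.

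**Figure D4:**
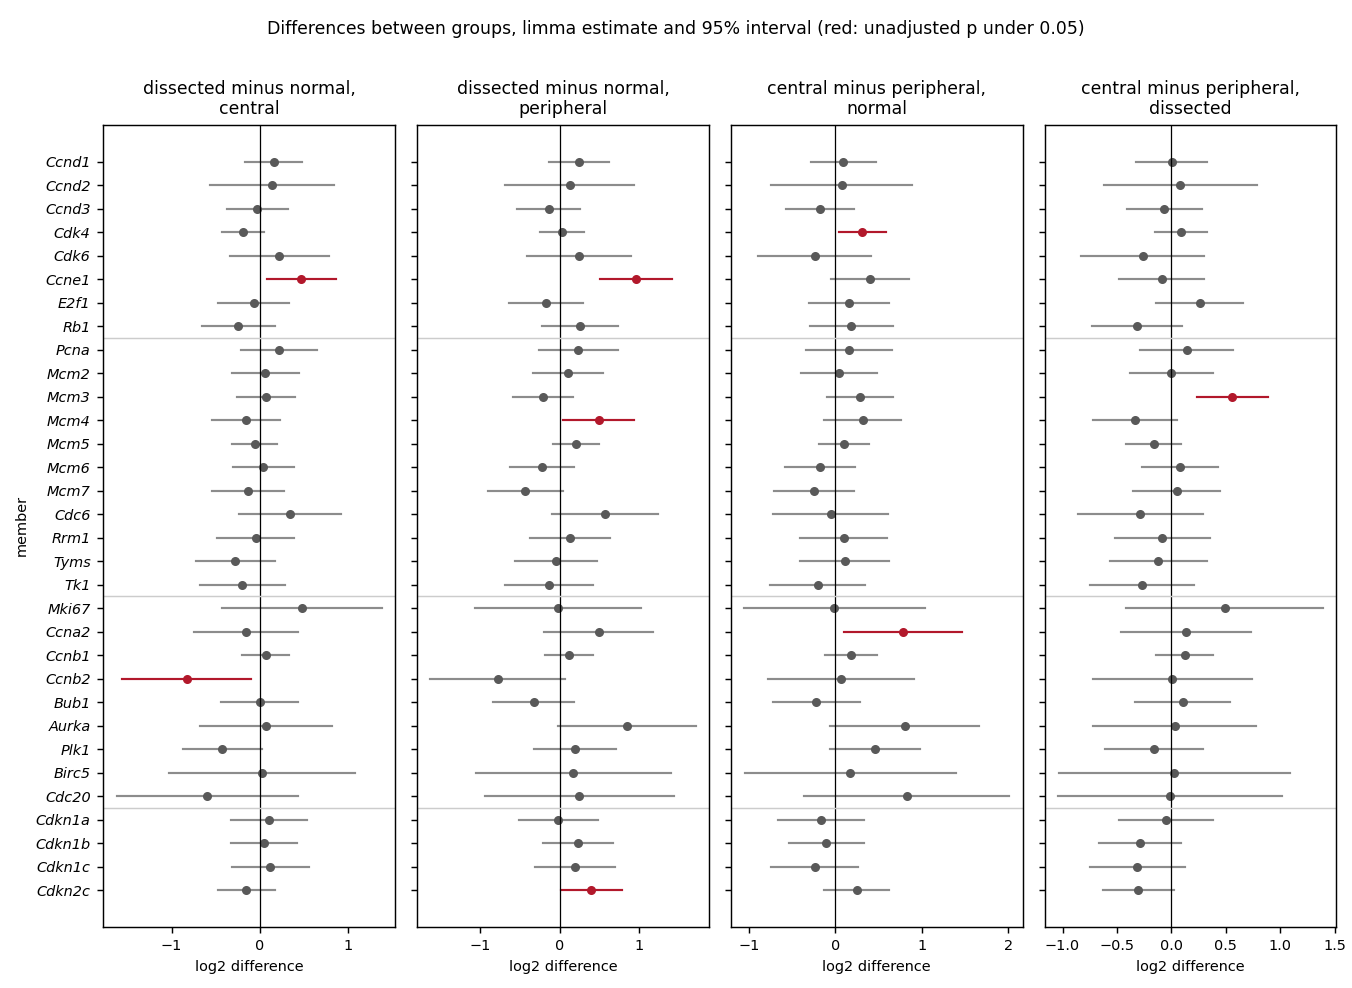
Log2 differences of the 32 tested members in the 4 comparisons, as limma estimates with 95% intervals, each panel on its own scale. Intervals drawn in red belong to an unadjusted p under 0.05, and no member passed adjustment. Ccne1 in the dissected against the normal periphery (0.96) and Mcm3 between the dissected areas (0.56) have the intervals farthest from 0.

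The mitosis genes stood out by their spread within groups rather than by differences between them. The SD of a gene among arrays of a group, pooled over the groups, had a median of 0.60 for the 9 mitosis genes. It was 0.30 for G1, 0.31 for S phase, 0.31 for the inhibitors and 0.32 over all 14664 genes. Above the 90th percentile of all genes (0.55) lay 5 of 9 mitosis genes (Mki67, Ccnb2, Aurka, Birc5 and Cdc20), 1 of 8 G1 genes (Ccnd2), and none of the S phase genes or inhibitors. Without normal central 3 the mitosis median was 0.53 and 4 of 9 lay above the 90th percentile.

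On the 5 normal central arrays the mitosis genes tended to be high or low together. Their mean log2 ratio was -0.54, 0.36, 0.96, -0.32 and 0.34, and 1, 7, 9, 1 and 6 of the 9 genes lay above their own normal central mean. The group mean was 0.16 ± 0.60 (SD, n = 5), and -0.04 ± 0.46 (SD, n = 4) without normal central 3. The other groups were closer, at -0.18 ± 0.17 (SD, n = 3) in the normal periphery, 0.01 ± 0.29 (SD, n = 5) in the dissected centre and -0.07 ± 0.20 (SD, n = 5) in the dissected periphery.

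A wider list of mitosis genes outside the members, 24 tested of 46, was likewise highest on normal central 3 and normal central 2: its mean was -0.19, 0.37, 0.50, -0.23 and 0.10, with 4, 15, 19, 6 and 13 of 24 genes above their normal central mean. Normal central 3 also had the highest mean of all 18 arrays for the S phase genes (0.14) and the wider lists of replication (0.21) and of G1 and E2F (0.22). The G1 mean there (0.18) was the highest of the normal central arrays but not of all 18. The means of the inhibitors (-0.01) and of the arrest and damage list (-0.10) were not highest there. Normal central 3 was the array with the Pth ratio of 3.99. Its mean over the 5 tested of 13 lymphocyte and thymocyte markers was 0.43, against -0.35 to 0.12 on the other 17 arrays. The mean of the 6 fibroblast markers on the normal central arrays was -0.76, 0.04, 0.53, -0.55 and 0.14, high and low on the same arrays as the mitosis mean and highest of all 18 on normal central 3. The C cell mean was also highest there, at 1.57. The part of any of these in the mitosis values was not tested. The labels do not say whether the areas of a group came from different mice.

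Of the widely spread mitosis genes, Birc5, survivin, read -1.16, 1.00, 1.92, -0.48 and -0.03 in the normal centre and -0.43, -0.02, 1.44, 0.22 and 0.15 in the dissected centre. Peripheral values of Birc5 were 0.00, 0.69 and -0.46 in normal and -0.17, 0.12, -0.57, 1.38 and 0.47 in dissected areas. In both central groups it was highest on replicate 3, as was the mitosis mean. Cdc20 read -0.56, 0.79, 0.72, -0.30 and 1.12 in the normal centre, 0.19, -1.08 and -0.54 in the normal periphery and 0.10, 0.35, 0.68, -0.18 and -2.15 in the dissected centre. It read 0.23, 0.27, 0.05, -0.17 and -1.52 in the dissected periphery. The lowest Cdc20 values of both dissected groups were those of replicate 5, which share a slide, while normal central 5, on the same slide, had the highest value of its group.

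Of the kinase inhibitors, Cdkn2c, p18, which binds Cdk4 and Cdk6, read -0.34, 0.23 and -0.33 on normal peripheral and 0.41, 0.59, 0.05, -0.10 and 0.31 on dissected peripheral arrays. It read 0.07, 0.32, 0.18, 0.12 and -0.18 in the normal centre and 0.22, -0.03, -0.02, -0.29 and -0.13 in the dissected centre. The peripheral groups overlapped through normal peripheral 2. The difference of 0.40 (SE 0.18, limma p 0.03994, adjusted p 0.5845) was positive on all 3 slides, and a second probe gave 0.36 (p 0.04799). Leaving out normal peripheral 1 or normal peripheral 3 gave 0.30 (p 0.1579) and 0.31 (p 0.1554).

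The dissection change of Cdkn2c in the centre minus that in the periphery was -0.55 (SE 0.24, limma p 0.03306, adjusted p 0.7896), and the second probe gave -0.50 (p 0.04211). Without normal peripheral 1 it was -0.45 (p 0.09493). Cdkn2c and Mcm4, an inhibitor and a helicase subunit, were the 2 members picked out in that comparison. For both, the dissection change was higher in the periphery than in the centre.

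Cdkn1a, p21, a target of p53 that stops the cycle after damage, read 0.46, -0.31, -0.11, -0.61 and -0.25 in the normal centre and 0.49, 0.11, -0.31, 0.01 and -0.60 in the dissected centre. In the periphery it read 0.26, -0.04 and -0.20 in normal and 0.12, 0.21, 0.03, -0.16 and -0.26 in dissected areas. The groups overlapped, with differences of 0.10 in the centre (95% interval -0.33 to 0.54) and -0.02 in the periphery (95% interval -0.51 to 0.48).

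Cdkn1b, p27, which keeps resting cells out of the cycle, read 0.19, 0.13, 0.05, 0.13 and 0.05 in the normal centre and 0.35, 0.19, 0.36, -0.39 and 0.27 in the dissected centre. In the periphery it read 0.59, 0.21 and -0.15 in normal and 0.78, 0.60, 0.20, -0.02 and 0.67 in dissected areas. The groups overlapped. The difference after dissection was 0.05 in the centre (95% interval -0.33 to 0.42, adjusted p 0.9979) and 0.23 in the periphery (95% interval -0.21 to 0.67, limma adjusted p 0.7947). Over the 4 tested inhibitors the mean log2 ratio was 0.065 to 0.41 on the dissected peripheral arrays and -0.21 to 0.14 on the normal peripheral ones.

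The wider lists of cell cycle genes outside the members were described by counts, and limma called 0 of their 76 tested genes in any comparison. After dissection in the centre, 7 of 24 mitosis genes, 13 of 26 replication genes, 8 of 17 genes of G1 and E2F and 1 of 9 genes of arrest and damage lay above 0. In the periphery the counts were 19 of 24, 15 of 26, 14 of 17 and 6 of 9. The median log2 differences of the mitosis list were -0.17 in the centre and 0.15 in the periphery, beside -0.01 and 0.01 for all genes. Between the centre and periphery of normal glands the median difference of that list was 0.21, with 19 of 24 genes above 0, where all genes had a median of 0.01 and 52.32% above 0. Between dissected areas it was -0.03, with 9 of 24 above 0, where 49.47% of all genes were. These medians were not tested, and the list's mean was 0.37 and 0.50 on normal central 2 and 3 but -0.19 and -0.23 on normal central 1 and 4.

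The wider-list genes of smallest unadjusted p after dissection in the centre were Tfdp2, a dimerisation partner of E2F (-0.31, limma p 0.01388), Smc4, a condensin subunit (0.52, p 0.01406), and Kif20a, a kinesin of cytokinesis (-0.74, p 0.02201). In the periphery they were Stmn1, which destabilises microtubules (0.55, limma p 0.0145), Ccng1, cyclin G1 (0.36, p 0.01785), and again Kif20a (-0.89, p 0.01861). Between normal areas they were Pold1, a DNA polymerase subunit (-0.59, limma p 0.02848), Cdc7, the kinase that fires origins (0.27, p 0.03074), and Stmn1 (0.48, p 0.0308). Between dissected areas they were Rpa1, which coats single-stranded DNA (0.47, limma p 0.01383), Chaf1b, a histone chaperone subunit (-0.46, p 0.04759), and Hmgb2, a chromatin protein (-0.40, p 0.05293). For the difference of the dissection change they were Pold1 (0.82, limma p 0.02226), Cdca8, a subunit of the chromosomal passenger complex (-1.23, p 0.03311), and Tfdp2 (-0.40, p 0.03378). All adjusted p-values of these genes ran from 0.4303 to 0.8693.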

How the data were processed

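Per the file headers, the deposited arrays' output gives spot and local background intensity in Cy5 and Cy3 from Agilent Feature Extraction 9.5.1.1, the submitters' processing notes naming 8.5.1.1. Per the file headers, the log10 ratio of processed Cy5 over Cy3 in these files is that program's own, after background subtraction and dye normalization. The authors also deposited a table of linear ratio values with no stated processing. After centring each probe it correlated with the log10 ratios at 0.975 to 1 per array, its column medians were -0.2 to 0.09 on the log2 scale, and its processing is otherwise unknown. Here log2 ratios were computed from the deposited intensity values by normexp (offset 50) and loess (span 0.3) with controls at weight 0, and spots of a probe were averaged.

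Probes with Cy5 well above background on at least 3 of 18 arrays were kept (19082), and the brightest probe stood for a gene. One model of the 4 group means was fitted with limma 3.58.1 in R 4.3.3 (package data.table, version 1.17.8), with Benjamini-Hochberg adjustment over 14664 genes at 0.05, and was tested on simulated data. All tests are two-sided. Full values are given for members with an unadjusted p under 0.05 or groups without overlap, for the smallest p of each class and comparison, and for Mki67, Pcna, Top2a, Ccnd1, Cdk1, Cdkn1a and Cdkn1b. Birc5 and Cdc20 were added after their values were seen. From the wider lists the 3 smallest p-values per comparison are named. The members and lists were chosen with earlier results of these data known.

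Alternatives were no background correction, the scanner's log ratio, Aquantile, Cy5 alone, the deposited table, other filters, the probe chosen before filtering, blocks of slide, scan day or replicate number, only the groups compared, leaving out weak arrays, and leaving out each array. The numbers of arrays limit the precision. Replicate numbers are shared by groups, with no meaning stated. Deviations of 21 pairs of the same number and slide correlated at -0.07 to 0.29 (median 0.09), with 9 over 0.1, against 6 of 93 pairs that shared neither. The 3 pairs that shared only the slide had a median of 0.10, with 1 over 0.1. The 3 pairs that shared only the number had a median of -0.02, with 0 over 0.1. With so few such pairs, number and slide cannot be told apart. Since the meaning of the numbers is not stated, the fit has no block, and it may thus leave out a real pairing. The blocked counts stand among the alternatives. Replicates are captured areas, and p-values measure the spread between them. Positions of probes come from the scanner output, on mm7 (NCBI35), and promoters are from RefSeq on GRCm38.p6.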

Additional observations from a re-analysis of the deposited data

Results flagged for a closer look

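Among 108 groups of 5 arrays, tested for the members and their class means, 4 held an array whose gap to the next value exceeded Dixon's 95% limit (0.71 of the group's range for 5 arrays). Chance gives such a gap in about 1 group in 20. Ccnb2 read 0.0263 on dissected peripheral 1, above the next value of -0.74. Cdc20 read -1.5209 on dissected peripheral 5, below the next value of -0.17. Cdkn1b read -0.3901 on dissected central 4, below the next value of 0.19. Tk1, thymidine kinase, read 0.5564 on dissected peripheral 5, above the next value of -0.11.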

How the results depend on the processing

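Of 4888 recomputed differences of members under 31 alternatives, 4780 moved by less than the SD within groups, 105 moved by more, and 3 passed the threshold, all of them Ccne1. Ccne1 after dissection in the periphery ranged from 0.74 to 2.95. Members called were 1 in the periphery by the scanner's processed log ratio and 1 by the deposited table, 1 between normal areas by that table, and 1 in the F test by no background correction, by the processed log ratio, by Cy5 alone and by the table, each time Ccne1. With 1 array left out, 0 to 1 members were called in the F test and 0 in the other comparisons. Genes called after dissection in the periphery were 1 by the processed log ratio and 1 by the table. Between normal areas 41 genes became 67 without background correction, 78 by the processed log ratio, 94 by the table, 8 without a filter, 18 with slide as a block, 4 with the replicate block and 95 without weak arrays. Between dissected areas 86 became 45 by Cy5 alone, 193 without weak arrays and 21 with only those groups. With 1 array left out, 0 to 1 genes were called after dissection in the centre (1 without dissected central 2 or 3) and in the periphery (1 without normal peripheral 3). Between normal areas 1 (without normal peripheral 2) to 76 (without dissected central 2) were called, between dissected areas 48 (without dissected central 3) to 173 (without dissected central 2), and in the F test 107 to 185. The replicate block changed no member's call. Of the 18 arrays, 13 correlated best with an array of their own replicate number, and arrays of 1 number mostly shared a slide. The fit on only the groups compared was not run for the F test. Dim probes limit the mitosis genes most, since 5 of 14 were too near background to test.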
